A study of Mus musculus with 16 samples.

Results

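Nearly all genes described here encode the subunits of the mitochondrial respiratory chain that are transcribed in the nucleus: NADH dehydrogenase (complex I), succinate dehydrogenase (complex II), ubiquinol-cytochrome c reductase (complex III), cytochrome c oxidase (complex IV) and ATP synthase (complex V). They were measured by droplet-based single-nucleus RNA sequencing of the mouse hippocampus. Members were chosen by gene symbol (Nduf, Sdh, Uqcr, Cox and Atp5 subunit names) and by a sum of at least 200 unique molecular identifiers (UMIs, each tagging one captured RNA molecule) over all nuclei. Of 32285 genes in the files, 85 matched by symbol and 83 were members: 36 of complex I, 4 of complex II, 8 of complex III, 18 of complex IV and 17 of complex V. Ndufa4 and Ndufa4l2 are counted with complex IV, of which NDUFA4 is a subunit. The GENCODE annotation used here lists 82 members as protein-coding and Ndufb1-ps, which matched by symbol and is counted with complex I, as a long non-coding RNA (31196 UMIs over nuclei). The members with the fewest UMIs over nuclei were Ndufa4l2 with 305, Cox4i2 with 316 and Cox7a1 with 336, and the matching genes below the threshold were Cox8b with 173 and Cox8c with 1. The 83 genes together held 1822684 UMIs, 0.197% of all UMIs in 147873 nuclei. The sum over nuclei chose the members, so levels in nuclei are given as a description.

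The respiratory chain passes electrons from NADH (complex I) or succinate (complex II) through complex III to oxygen at complex IV, and the proton gradient this builds drives ATP synthase. Some subunits of complexes I, III, IV and V are encoded by mitochondrial DNA, while the remaining ones are transcribed in the nucleus, translated in the cytosol and imported. Several complex IV subunits exist as isoforms from separate genes, such as COX6A2 in heart and skeletal muscle in place of COX6A1, and COX4I2 in lung and vascular cells in place of COX4I1.

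The study compared 4 groups of 4 libraries from female mice 9 months of age. Ch25h was labelled +/+ or -/-, and each of these genotypes came with tau (Tau+) or without it (Tau-), a design that asks how tau and the loss of Ch25h (cholesterol 25-hydroxylase) act alone and together. The labels give neither the strain, nor the tau construct and its promoter, nor how Ch25h was deleted, nor whether each library is a separate animal, so p-values measure the spread between these libraries. UMIs of Ch25h were not lower in the libraries labelled Ch25h-/-. All nuclei of the 4 replicates held 12, 11, 10 and 13 Ch25h UMIs in the Tau- and 39, 30, 16 and 17 in the Tau+ libraries with Ch25h, and 26, 12, 26 and 25 in the Tau- and 32, 33, 29 and 13 in the Tau+ libraries labelled Ch25h-/-. Where the deletion lies within the transcript is not given, so the counts do not check it, and a direction drawn from these libraries rests on their label.

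Each library held 8130 to 11654 nuclei. Clusters were named from marker genes, with respiratory chain genes kept out of the clustering, and 120094 nuclei were named after 11045 predicted doublets were removed. Barcodes under 100 UMIs mostly hold no nucleus and sample RNA outside nuclei (free RNA). Barcodes called of middle rank here are a fixed range of ranks by UMI count, below the nuclei but above most barcodes of a library. Each library held 1778565 to 2420378 barcodes, of which 1757382 to 2350925 lay under 100 UMIs. The median size of barcodes of middle rank, a measure of the free RNA per droplet, was 66 to 136 UMIs by library. It was 100 or more in 6 libraries, 4 of them Tau+. In those 6 libraries the limit of 100 UMIs leaves out most droplets of middle rank, and 41.0 to 83.5% of the UMIs under it came from barcodes with fewer than 10 UMIs, against 20.2 to 33.8% in the other 10. Free RNA levels and percentages below therefore rest on different kinds of barcodes in different libraries. Replicates 1 and 2 of each group lay above replicates 3 and 4 in this measure, a split that the labels do not name. Between any 2 libraries 0.119 to 0.465% of nuclear barcodes were shared.

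The members were spread over 19 chromosomes and were short genes. Their median length from first to last base of the gene was 7284 bp, with a range from 953 bp for Cox6a2 to 105382 bp for Cox7b2, against a median of 25419.5 bp for 15844 protein-coding genes with at least 200 UMIs in nuclei. RefSeq promoter sequences (build GRCm38.p6, from 250 bases before to 50 after the gene start) matched 68 of the 83 members. Both strands were searched for 4 motifs of factors known to act on respiratory genes: the NRF1 motif, CCGGAAG (ETS family, including GABP), AAGATGGCG (YY1) and TCAAGGTCA (ERR). The NRF1 motif occurred in 17 of 68 member promoters (25%) and in 5.19% of 27025 genes with a promoter sequence. The ETS letters occurred in 17 (25%) against 9.93%, the YY1 letters in 7 (10.3%) against 1.64% and the ERR letters in 2 (2.94%) against 0.466%. The 27025 genes were not limited to protein-coding genes or by UMIs in nuclei, unlike the 15844 genes of the length comparison. The shares are therefore not of like sets. A match is a description of the sequence and not a bound site.

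Promoters are shown for 5 members, chosen after their values were seen: Cox6a1 and Cox5a varied together between libraries, Cox7b2 was the member most enriched in nuclei, and Sdhd and Ndufs6 carried pairs of motifs. Capitals mark the motif matches, read on either strand, and no match overlaps another in these windows. Cox6a1 lies at chr5:115348909-115349208 on the minus strand and holds 2 NRF1 matches and 1 ETS match. Sdhd lies at chr9:50603800-50604099 on the minus strand with 1 NRF1, 1 ETS and 1 ERR match, and Ndufs6 lies at chr13:73328433-73328732 on the minus strand with 1 NRF1 and 1 YY1 match. The windows of Cox5a (chr9:57520982-57521281, plus strand) and Cox7b2 (chr5:71548156-71548455, minus strand) hold none of the 4 motifs as spelled.
Cox6a1: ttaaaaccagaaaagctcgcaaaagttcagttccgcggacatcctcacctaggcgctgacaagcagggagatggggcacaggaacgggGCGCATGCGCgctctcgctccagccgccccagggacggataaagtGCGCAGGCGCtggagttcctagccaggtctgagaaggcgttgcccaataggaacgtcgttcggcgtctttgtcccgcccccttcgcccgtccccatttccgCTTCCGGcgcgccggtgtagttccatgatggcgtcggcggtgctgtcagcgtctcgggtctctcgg
Sdhd: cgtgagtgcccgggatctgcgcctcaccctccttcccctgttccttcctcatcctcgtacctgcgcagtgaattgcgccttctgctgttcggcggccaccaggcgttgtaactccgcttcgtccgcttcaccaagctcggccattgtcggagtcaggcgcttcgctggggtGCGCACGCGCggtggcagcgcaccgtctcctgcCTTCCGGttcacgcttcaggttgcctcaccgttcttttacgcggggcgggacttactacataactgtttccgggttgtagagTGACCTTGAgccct
Ndufs6: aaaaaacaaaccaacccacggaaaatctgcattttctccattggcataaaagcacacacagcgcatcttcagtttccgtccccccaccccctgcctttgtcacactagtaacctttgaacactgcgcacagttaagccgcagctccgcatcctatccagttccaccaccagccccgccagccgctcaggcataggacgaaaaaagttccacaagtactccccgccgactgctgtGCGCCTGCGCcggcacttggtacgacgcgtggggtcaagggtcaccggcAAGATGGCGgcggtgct
Cox5a: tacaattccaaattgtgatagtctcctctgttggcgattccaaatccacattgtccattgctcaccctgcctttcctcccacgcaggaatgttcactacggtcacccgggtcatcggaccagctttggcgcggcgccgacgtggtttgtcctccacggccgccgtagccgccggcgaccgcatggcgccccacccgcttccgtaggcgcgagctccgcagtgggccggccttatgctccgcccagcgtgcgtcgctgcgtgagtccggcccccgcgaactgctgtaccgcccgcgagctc
Cox7b2: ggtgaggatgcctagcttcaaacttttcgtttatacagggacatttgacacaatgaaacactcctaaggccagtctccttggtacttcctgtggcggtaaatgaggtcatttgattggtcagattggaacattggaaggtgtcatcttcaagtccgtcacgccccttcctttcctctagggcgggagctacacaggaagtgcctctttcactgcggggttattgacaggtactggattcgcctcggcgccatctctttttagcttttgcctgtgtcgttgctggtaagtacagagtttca

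Among the classes given here, respiratory chain genes took the largest mean share of UMIs in vascular and choroid plexus nuclei. Their share was middling in astrocytes, microglia, oligodendrocytes and inhibitory neurons, and smallest in dentate granule neurons, CA pyramidal neurons and oligodendrocyte precursors. Levels in ependymal nuclei, fibroblasts, border-associated macrophages, Cajal-Retzius cells and other excitatory neurons are not given. In dentate gyrus (DG) granule neurons the members together held 18.2 ± 1.39 UMIs per 10000 (SD over 16 libraries, range 16.1 to 21.9), and in CA pyramidal neurons 17.1 ± 1.15 (15.4 to 19.6). In inhibitory neurons they held 23.6 ± 1.63 (20.7 to 26.7), in oligodendrocytes 23.1 ± 2.41 (20.3 to 29.99), in microglia 25.1 ± 2.03 (21.9 to 30.02) and in astrocytes 27.4 ± 2.65 (24.0 to 33.3). The range in astrocytes lay wholly above the ranges in DG and CA neurons, while inhibitory neurons, oligodendrocytes and microglia overlapped one another.

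Among inhibitory neurons, Pvalb neurons, the fast-spiking interneurons, held 28.7 ± 3.36 per 10000 (24.0 to 35.1), Sst neurons 23.4 ± 1.88 (20.5 to 26.5), Vip neurons 21.3 ± 1.70 (17.4 to 23.3) and Lamp5 neurons 20.3 ± 1.19 (18.8 to 22.8). The Pvalb range lay above the Vip and Lamp5 ranges and overlapped the Sst range. Oligodendrocyte precursors held 18.02 ± 1.18, below the lowest mature oligodendrocyte library in all but the highest of their libraries, which reached 21.1. Choroid plexus epithelial nuclei held 40.5 ± 1.69 in the 13 libraries with at least 20 such nuclei, and mural nuclei held 44.5 ± 7.75 in 9 libraries. Endothelial nuclei held 70.1 ± 29.5 in 6 libraries with a range from 33.3 to 106. There mitochondrially encoded UMIs ranged from 33.7 to 145 and ribosomal protein UMIs from 90.9 to 343 per 10000. In mural nuclei free RNA was estimated at, for example, 6.16% of the Ndufs1 and 33.0% of the Cox5b UMIs. The median over libraries of the median UMIs per nucleus was 999 in mural and 1216 in endothelial nuclei. Free RNA per droplet was measured at 66 to 136 UMIs by library. No free RNA estimate for the members together is given for choroid plexus, mural and endothelial nuclei, and its part in their values was not tested.

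**Figure D1:**
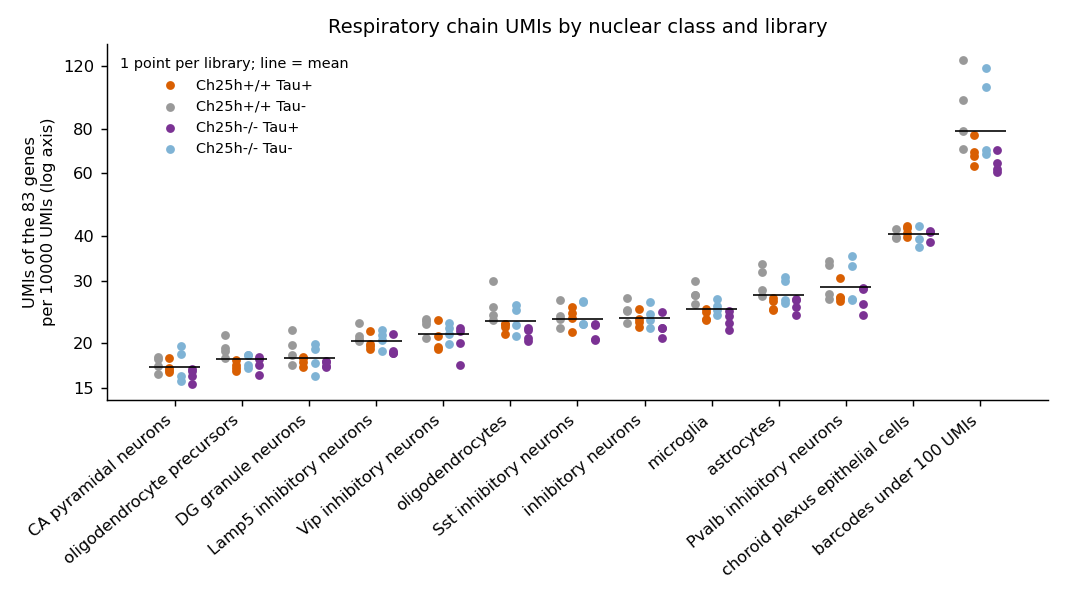
Sum of the 83 respiratory chain genes in UMIs per 10000 UMIs (vertical log axis) for nuclear classes and barcodes under 100 UMIs (horizontal axis). Each point is 1 library, coloured by genotype group, and lines are means over libraries: CA neurons lie lowest at 17.1, astrocytes at 27.4, choroid plexus at 40.5 and barcodes under 100 UMIs highest at 79.0.

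Among CA neurons, inhibitory neurons and astrocytes, each of the 5 complexes was lowest in the first and highest in the last. Complex I genes held 7.10 UMIs per 10000 in CA neurons, 9.11 in inhibitory neurons and 10.7 in astrocytes, and complex IV genes held 3.37, 5.14 and 6.12 in the same classes. Complex V genes held 4.22, 5.89 and 6.70, complex III genes 1.27, 1.84 and 1.98, and complex II genes, which include succinate dehydrogenase's flavoprotein Sdha, 1.18, 1.62 and 1.90. Of the 83 members, 30 had their highest mean level in astrocytes, 20 in oligodendrocytes, 19 in microglia, 13 in inhibitory neurons and 1 in DG neurons, and 56 had their lowest in CA neurons. The ratio of the highest to the lowest class mean had a median of 1.95. Uqcrc2 (complex III core), Ndufv2 (complex I) and Atp5md (complex V) were among those that differed least, with ratios of 1.35, 1.38 and 1.27, and were chosen after their values were seen.

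Each class was compared with the mean of the other 5 in a single fit with edgeR's quasi-likelihood test over summed UMIs, with the library as a term, on the 80 members that passed the low-count filter (Cox4i2, Cox7a1 and Ndufa4l2 did not). Most genes of any kind differ between classes, so each count is set beside the share of all genes called. In astrocytes 67 members were higher and 4 lower, where 39.1% of all genes tested were higher and 41.6% lower. In inhibitory neurons 45 were higher and 12 lower of 79, Cox6a2 left out of the count because it passed the UMI rule through this class (background 42.5% and 40.2%), and in oligodendrocytes 44 and 16 (38.4% and 44.8%). In DG neurons 12 were higher and 57 lower (42.9% and 41.2%), and in CA neurons 9 and 59 (45.1% and 40.5%). With library totals in place of TMM scaling these splits became 4 and 68 in DG neurons and 2 and 75 in CA neurons. No share of all genes is given for that scaling, so these splits are not read as a result about the members. Cox6a2 was kept in the counts of the other 5 classes, where a lower call of it would rest on the UMI rule.

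The split in microglia depended on the scaling. With TMM scaling 7 members were higher and 43 lower (background 33.8% and 47.3%), and the median of all genes lay at -0.23 on the log2 scale. With library totals alone 43 were higher and 5 lower. In that fit the log2 difference was 1.07 in place of 0.58 for Ndufa9 and -0.43 in place of -0.93 for Ndufv1. The share of all genes called with library totals is not given, so these counts are not read as a result about the members. The median log2 difference of the members was -0.24 in microglia, close to the all-gene median, against 0.33 in astrocytes, 0.21 in oligodendrocytes, 0.15 in inhibitory neurons, -0.23 in DG neurons and -0.27 in CA neurons. Free RNA was estimated to supply 17.8% of the members' UMIs in microglia, 17.7% in oligodendrocytes, 10.1% in astrocytes, 6.19% in DG, 3.78% in CA and 3.55% in inhibitory neurons.

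The widest differences between classes belonged to complex IV isoforms. Cox7b2, the paralogue of Cox7b, stood at 21.6 ± 11.7 CPM (counts per 1000000 UMIs of a class; SD, n = 16) in astrocytes with a range of 5.08 to 48.2, at 9.43 ± 3.69 in inhibitory neurons, at 7.79 ± 3.86 in DG neurons and at 5.13 ± 1.86 in CA neurons. It was nearly missing from oligodendrocytes (0.412 ± 0.522 CPM, 18 UMIs in all) and microglia (2 UMIs in all). Free RNA was estimated at 43.4% and 95.3% of those UMIs. Against the mean of the other classes it was higher in astrocytes by 3.26 (SE 0.13) and lower in microglia by 4.77 (log2 -4.77, SE 0.56), with edgeR adjusted p of 2.1e-41 and 6.8e-13. In DG, CA and inhibitory neurons its log2 differences of 1.68, 1.07 and 1.89 were set against a mean that holds the near-zero oligodendrocyte and microglial values.

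Cox6b2, the isoform of Cox6b1 described in testis, was high in some non-neuronal classes and near 0 in neurons. It reached 18.2 ± 3.32 CPM in astrocytes (13.6 to 25.1) and 8.98 ± 2.64 in oligodendrocytes (6.17 to 16.6), and the neuronal classes lay at 0.186 ± 0.176 in DG, 0.183 ± 0.0947 in CA and 0.542 ± 0.445 in inhibitory neurons, and every astrocyte and oligodendrocyte library lay above every neuronal one. The log2 difference in astrocytes was 4.48 (SE 0.13, edgeR adjusted p = 1.4e-54). Pooled over libraries it stood at 55.3 CPM in choroid plexus epithelial nuclei (523 UMIs) and 45.1 CPM in fibroblasts (282 UMIs). Microglia held 1.497 CPM. Barcodes under 100 UMIs held 9.61 CPM of it, above every neuronal class, and free RNA was estimated at 2.10% of its UMIs in astrocytes and 78.2% in DG neurons.

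Cox6a2, the muscle-type isoform of Cox6a1, had its highest mean of the 6 classes in inhibitory neurons (4.38 CPM) and differed between their subtypes. Pvalb neurons held 12.3 ± 3.37 CPM (6.27 to 17.1 over 16 libraries, 165 UMIs), Lamp5 neurons 5.59 ± 4.54 (65 UMIs), the other inhibitory neurons 3.19 ± 1.69 (0.469 to 7.13, 106 UMIs), Vip neurons 1.19 ± 2.23 (9 UMIs) and Sst neurons 0.414 ± 0.892 (6 UMIs). DG and CA neurons, which were larger samples, held 12 and 16 UMIs at 0.0868 and 0.0769 CPM pooled. Mean levels were 1.25 CPM in microglia and 0.456 in oligodendrocytes. No free RNA estimate is given for these 2 values, and its part in them was not tested. Of its 494 UMIs over nuclei 351 lay in inhibitory neurons, so without them it would miss the 200 UMI threshold, and its class difference is given with no test. Barcodes under 100 UMIs held 5.39 CPM, and free RNA was estimated at 0.524% of its UMIs in Pvalb neurons against 96.7% in DG neurons.

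Cox4i2 and Ndufa4l2, which other tissues express in vessel walls and under low oxygen, had their highest levels in mural nuclei (pericytes and smooth muscle). In 402 mural nuclei Ndufa4l2 held 145 UMIs (316 CPM pooled) and Cox4i2 held 63 UMIs (137 CPM), and in 303 endothelial nuclei they held 8 UMIs (16.7 CPM) and 10 UMIs (20.8 CPM). In 13709 astrocytes the same genes held 5 UMIs (0.142 CPM) and 28 UMIs (0.797 CPM). Ndufa4l2 met the 200 UMI threshold only with its mural UMIs, since 160 of its 305 UMIs lay elsewhere. Cox7a1, the muscle isoform of Cox7a2, reached at most 3.64 CPM in any class, from 6 UMIs in ependymal nuclei.

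The widely expressed isoforms were less uneven, and those of one subunit did not share a pattern. Among the c-ring genes of ATP synthase, which encode the same mature protein, Atp5g2 was highest in microglia (60.1 CPM) and oligodendrocytes (49.4) and lowest in CA neurons (20.9), while Atp5g1 was highest in inhibitory neurons (35.5) and lay between 21.5 and 24.2 in the other 5 classes. Atp5g3 was also highest in inhibitory neurons (21.6 CPM), with 12.9 in CA neurons. In choroid plexus epithelial nuclei Atp5g1 stood at 120 ± 22.8 CPM. Cox4i1, Cox8a, Cox7a2 and Ndufa4 were each higher in astrocytes, by 0.57, 0.66, 0.53 and 0.44 on the log2 scale, and lower in both DG and CA neurons in the same edgeR fit. Cox7b was highest in inhibitory neurons at 65.9 CPM, and Cox7a2l, a supercomplex factor, was lower in astrocytes (log2 -0.42, SE 0.07) with 19.6 ± 5.02 CPM.

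**Figure D2:**
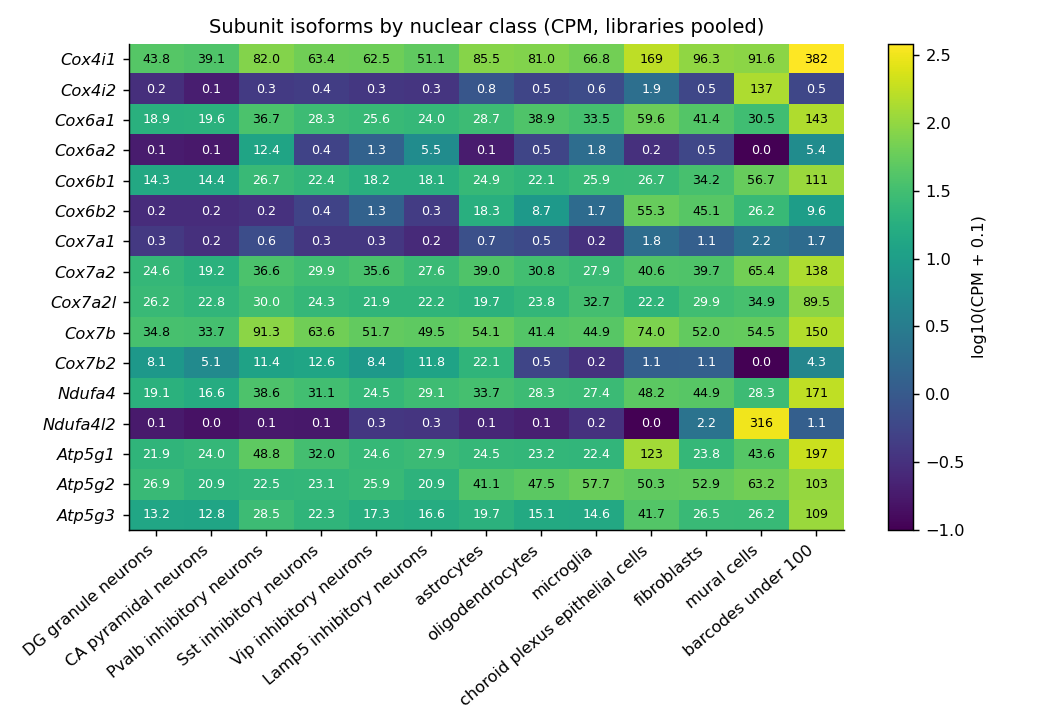
Isoform genes (rows) by nuclear class and in barcodes under 100 UMIs (columns), with CPM pooled over libraries printed in each cell and log10(CPM + 0.1) as colour. Cox6b2 is high in choroid plexus epithelial nuclei (55.3) and astrocytes, Cox6a2 in Pvalb neurons, and Ndufa4l2 (316) and Cox4i2 (137) in mural nuclei.

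Other members differed between a class and the mean of the other 5, in several cases with a further class at a similar level. Ndufb11, an accessory subunit of complex I encoded on the X chromosome, stood at 24.8 ± 4.69 CPM in oligodendrocytes (log2 difference 1.12, SE 0.06) and at 6.29 ± 1.46 in CA neurons (log2 -1.04, SE 0.06). Its means in microglia and astrocytes were 23.3 and 21.7 CPM. Free RNA was estimated at 20.4% of the Ndufb11 UMIs in oligodendrocytes and 12.6% in CA neurons. Ndufa10 was higher in CA neurons (68.8 ± 10.6 CPM, log2 0.76, SE 0.03) and Ndufs3, a catalytic core subunit, in DG neurons (55.3 ± 8.30 CPM, log2 0.60, SE 0.03). Ndufa10 stood at 69.3 CPM in inhibitory neurons, and Ndufs3 at 50.2 in astrocytes and 48.9 in microglia. Ndufs4 was lower in oligodendrocytes (70.7 ± 8.57 CPM, log2 -0.72, SE 0.03), and Ndufv1, which binds NADH, was lower in microglia (14.9 ± 6.46 CPM, log2 -0.93, SE 0.11; -0.43 with library totals). All of these log2 differences passed an edgeR adjusted p of 0.05. Free RNA was estimated at 24.6% of the Ndufv1 UMIs in microglia. Ndufa9 was higher in microglia at 39.4 ± 9.13 CPM (log2 0.58, SE 0.08, and 1.07 with library totals). Ndufa1 was lower in astrocytes at 4.22 ± 1.68 CPM (log2 -0.43, SE 0.11), where free RNA was estimated at 25.3% of its UMIs. In CA neurons Ndufa1 stood at 4.42 CPM.

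Respiratory chain transcripts took a larger share of UMIs outside nuclei than in them. Barcodes under 100 UMIs held 79.0 ± 20.6 member UMIs per 10000 (60.4 to 125), against 19.8 ± 1.4 in all nuclei (18.05 to 22.5), and no library of the former overlapped the latter. With edgeR's quasi-likelihood test and the library as a term, 78 of 83 members were higher in these barcodes and 3 lower, where 39.7% of 19322 genes were higher and 42.0% lower. The median log2 difference was 2.18 for the members and -0.04 for all genes. By complex, 33 of 36 complex I genes were higher and 2 lower, 16 of 18 complex IV genes were higher and 1 lower, and all 4, 8 and 17 genes of complexes II, III and V were higher, where Sdha of complex II turned lower against barcodes under 50 UMIs.

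The 5 genes most shifted outside nuclei belonged to complexes III, IV and V. Uqcr11 (complex III) held 5.41 to 12.02 CPM in nuclei with a median of 6.35, and 49.4 to 150 with a median of 66.2 in barcodes under 100 UMIs, a log2 difference of 3.24 (SE 0.06). Cox6a2 followed with 3.22 (SE 0.14), Atp5e, the epsilon subunit of ATP synthase, with 3.21 (SE 0.06), Atp5k with 3.18 (SE 0.05) and Uqcr10 with 3.15 (SE 0.05). All 16 libraries had higher values outside nuclei for each of these 5 genes. The edgeR adjusted p for Uqcr11 was 4.7e-31.

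At the other end stood long genes. Cox7b2 held 3.50 to 12.5 CPM in nuclei with a median of 5.76, and 0.572 to 10.9 with a median of 3.61 outside, lower in 15 of 16 libraries (log2 -0.84, SE 0.11, edgeR adjusted p = 2.0e-08). Ndufs4, an accessory subunit of complex I whose loss in mice models Leigh syndrome, spans 100464 bp. It held 100 to 117 CPM in nuclei and 71.5 to 101 outside, lower in all 16 libraries (log2 -0.57, SE 0.04). Ndufs1, the largest complex I subunit, fell by 0.24 (SE 0.04), a call that was lost with library totals (log2 -0.05, adjusted p = 0.308). Ndufa10 did not pass at 0.07 (SE 0.08, edgeR adjusted p = 0.402), and Sdha was higher by 0.11 (SE 0.05), a direction that turned to -0.13 against barcodes under 50 UMIs.

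**Figure D3:**
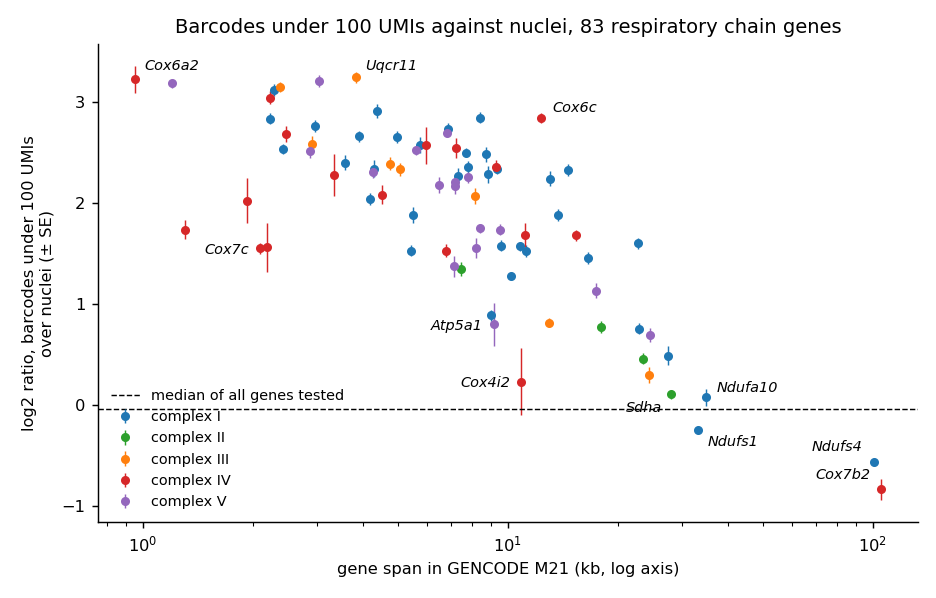
Log2 ratio of barcodes under 100 UMIs to nuclei in the edgeR fit (vertical axis, bars are ± SE over 16 libraries) against gene length in kb (horizontal log axis) for the 83 genes, coloured by complex; the dashed line is the median of all genes tested. Short genes such as Uqcr11 (3.24) lie high, and the long genes Ndufs1, Ndufs4 and Cox7b2 lie below the line.

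Gene length moved with this difference. The 58 members spanning under 10 kb had a median log2 difference of 2.35 (0.80 to 3.24), and the 25 longer members a median of 0.82 (-0.84 to 2.84). Among all protein-coding genes tested, 3508 under 10 kb had a median of 1.27 with 86.6% called higher, and 11777 longer ones had a median of -0.21 with 30.3% called higher. The part of length in the members' difference was not tested. For comparison, 13 of 13 mitochondrially encoded subunits were higher outside nuclei (median 2.93), as were 73 of 74 cytosolic ribosomal protein genes (median 2.78). Of 46 assembly factors of the chain 30 were higher and 14 lower (median 0.42), and of 18 citric acid cycle enzymes 10 were higher and 7 lower (median 0.34). Glycolysis rows gave 13 higher and 3 lower of 18 (median 1.06), regulators of mitochondrial gene expression 4 and 6 of 13 (median 0.01), and other electron carriers with the ATPase inhibitor 5 and 2 of 7 (median 1.26).

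Before genotypes are compared, the spread between libraries of a group matters for several members. The standard deviation over 16 libraries of log2 CPM in CA neurons had a median of 0.23 over members, against 0.20 over 14116 genes. Atp5a1, the alpha subunit of ATP synthase, had 0.91, rank 160 among those genes, with a counting SD of 0.06. Uqcrfs1 (the Rieske protein), Cox7b2, Cox4i1, Cox5a and Cox6a1 followed with 0.70, 0.51, 0.50, 0.49 and 0.48. These genes were singled out after their values were seen.

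In CA neurons Atp5a1 stood in replicates 1 to 4 at 98.3, 93.2, 27.9 and 27.9 CPM without tau and at 106, 95.6, 37.4 and 96.1 with tau in Ch25h+/+. In the knockout-labelled libraries it stood at 84.2, 91.7, 84.4 and 28.8 without tau and at 88.2, 96.3, 22.8 and 20.1 with tau. Every group held both high and low libraries, with no value between 37.4 and 84.2. The 6 lowest libraries were the same in all 6 classes, all of them replicates 3 or 4, and the gap between the 6th and 7th lowest value lay at 31.2 to 74.4 CPM in DG neurons, 54.1 to 113 in inhibitory neurons, 64.6 to 121 in astrocytes, 49.5 to 79.3 in oligodendrocytes and 43.2 to 72.4 in microglia. In barcodes under 100 UMIs the highest library was 2.90 times the lowest, and 3 of its 6 lowest libraries were among those 6.

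Cox5a followed in CA neurons with 32.4, 26.7, 10.2 and 17.9 CPM without and 31.8, 29.4, 29.4 and 28.0 with tau in Ch25h+/+, and with 25.4, 26.1, 31.2 and 21.6 without and 29.1, 24.5, 14.3 and 14.2 with tau in the knockout-labelled libraries. Cox6a1 was likewise low, at 11.7, 12.001, 11.9, 10.1 and 13.9 CPM, in replicates 3 and 4 of Ch25h+/+ Tau- and of Ch25h-/- Tau+ and in replicate 4 of Ch25h-/- Tau-, where the other 11 libraries held 19.8 to 26.9. Ch25h+/+ Tau+ replicate 3, among the 6 lowest for Atp5a1, held 23.5 CPM of Cox6a1. Sdhd, by contrast, ranged from 4.64 to 8.09 CPM over the 16 libraries. In CA neurons the 6 lowest libraries for Atp5a1 and the 5 lowest for Cox5a and for Cox6a1 were all replicates 3 or 4. The 6th lowest was a replicate 2 for both Cox5a (24.5 CPM) and Cox6a1 (19.8 CPM). These numbers follow accession order, as in the split in free RNA per droplet given above. No cause of these library differences was tested.

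**Figure D4:**
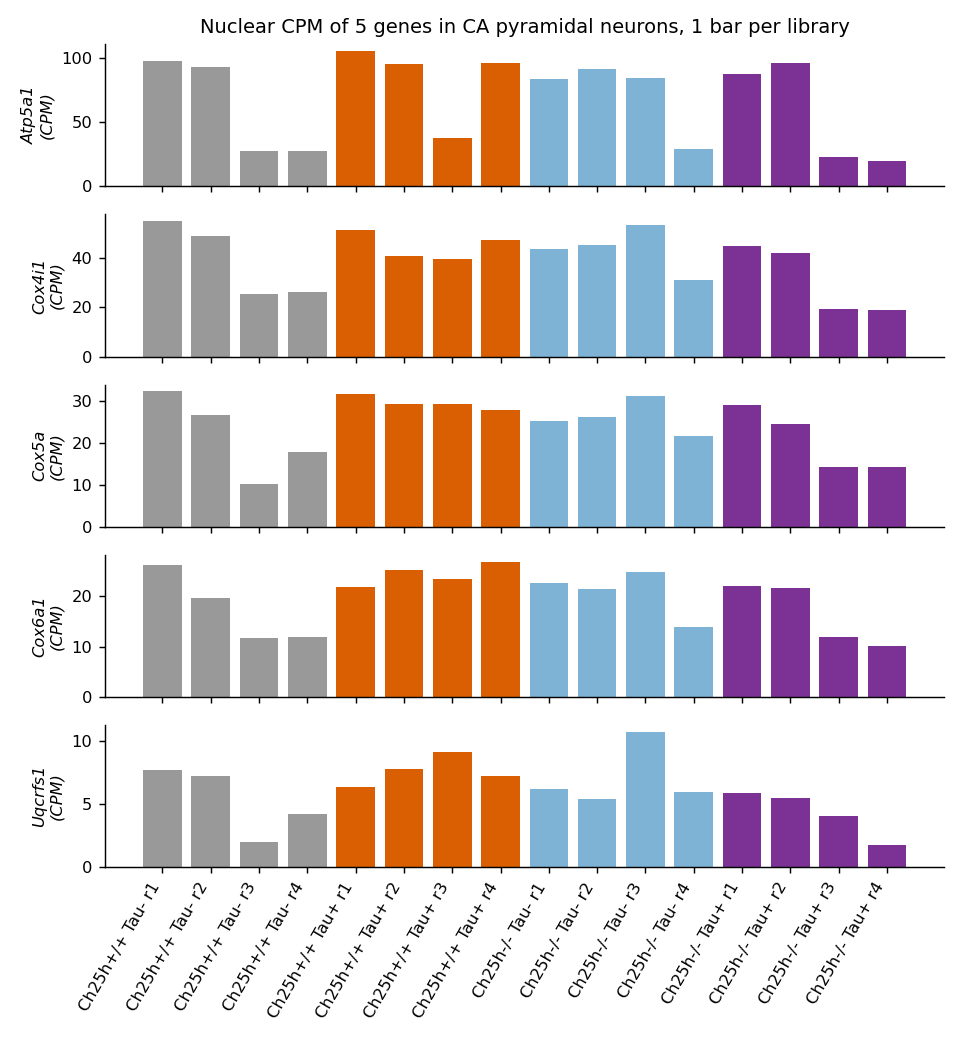
CPM of 5 genes in CA neurons (vertical axes) with 1 bar per library, coloured by genotype group and labelled by replicate (r1 to r4). Atp5a1 bars reach at most 37.4 or at least 84.2, and every group holds bars of both kinds.

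Across genotypes, respiratory chain genes tended to lower values in Tau+ libraries. In 6 classes 5 tests of single genes passed the threshold, 3 of them in microglia, where that count lay near the share of all genes called lower. In astrocytes the members together held 30.1 ± 2.87 UMIs per 10000 without tau and 25.7 ± 0.980 with tau in Ch25h+/+ (SD, n = 4), and 28.2 ± 2.4 without and 25.6 ± 1.25 with tau in the knockout-labelled libraries. In microglia the same order of groups gave 27.6 ± 1.76, 24.1 ± 0.819, 25.2 ± 1.10 and 23.3 ± 1.21. Barcodes under 100 UMIs moved the same way, with 92.6 ± 24.1, 69.0 ± 5.90, 90.4 ± 25.4 and 64.0 ± 4.12, as did the means of their mitochondrially encoded UMIs at 178 ± 115, 117 ± 13.5, 151 ± 45.8 and 116 ± 14.1 per 10000. Ch25h+/+ Tau- replicate 3 stood at 349 there, the other 3 libraries of its group held 108 to 133, and without it that mean was 120.5, within 1 SD of the Tau+ groups. In barcodes of middle rank the members held 99.4 ± 27.0, 70.0 ± 6.999, 96.6 ± 31.3 and 66.0 ± 2.69. Cytosolic ribosomal protein genes also had lower means with tau in astrocytes (25.7 ± 2.64, 21.4 ± 0.817, 22.3 ± 2.21 and 20.7 ± 1.34 per 10000), in oligodendrocytes (39.4 ± 5.93, 32.3 ± 1.71, 34.2 ± 4.79 and 29.3 ± 1.74) and in barcodes under 100 UMIs (157, 130, 144 and 121). In microglia they stood at 46.8 ± 2.81, 45.3 ± 3.47, 40.7 ± 0.438 and 44.8 ± 4.13. The part of free RNA in the genotype differences was not tested beyond the fits given below.

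In the mean of the tau effects in Ch25h+/+ and in those labelled Ch25h-/-, 2 members were lower in astrocytes and 3 in microglia with edgeR's quasi-likelihood test at an adjusted p under 0.05, and none was higher. In astrocytes 0.41% of 12688 genes were called lower, and in microglia 3.59% of 8432. The 2 of 79 members tested in astrocytes and 3 of 59 in microglia are set against these shares. The microglial count lay near its share and is not read as a result about the members. In DG, CA and inhibitory neurons and oligodendrocytes 0 members were called, where 0.0729, 0.0489, 0.0274 and 0.318% of all genes were called in either direction. At an unadjusted p under 0.05 the counts of members lower were 23, 14, 10 and 17 in the same order. DESeq2 called 1 in DG neurons, 1 in oligodendrocytes and 0 in CA and inhibitory neurons. Its share of all genes is not given, so its counts are not read as a result about the members. With a term for replicates 1 and 2 against 3 and 4 in the edgeR fit, 12 members were called lower in astrocytes (1.51% of all genes), 5 in microglia (5.16%), 3 in oligodendrocytes (0.401%), 1 in DG neurons (0.192%), 1 in CA neurons (0.226%) and 0 in inhibitory neurons (0.0205%), and none was called higher.

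Atp5j, coupling factor 6 of the ATP synthase stalk, had values in astrocytes of 22.7, 37.2, 46.1 and 29.6 CPM in Ch25h+/+ Tau- and 21.9, 26.2, 22.3 and 26.9 in Ch25h+/+ Tau+, and of 28.1, 28.4, 34.6 and 34.3 and of 23.2, 26.9, 24.2 and 24.2 in the labelled Ch25h-/- libraries without and with tau. The labelled Ch25h-/- groups did not overlap, and 1 Ch25h+/+ Tau- library lay among the Tau+ values. It fell by 0.47 (SE 0.12, edgeR adjusted p = 0.0494), lost in 14 of 16 fits without 1 library, those without Ch25h+/+ Tau- replicate 1 and Ch25h-/- Tau- replicate 1 being the exceptions (adjusted p from 0.018 to 0.115). It was also lost with RLE scaling (log2 -0.47, adjusted p = 0.0501) and with free RNA subtracted (log2 -0.45, adjusted p = 0.0982), and free RNA was estimated at 14.0% of its UMIs in astrocytes.

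Ndufb5, an accessory subunit of the complex I membrane arm, had values in microglia of 15.9, 30.3, 26.6 and 29.0 CPM in Ch25h+/+ Tau- and 11.6, 15.998, 13.7 and 16.8 in Ch25h+/+ Tau+. In the labelled Ch25h-/- libraries it had 26.4, 18.2, 22.9 and 28.9 without tau and 8.77, 14.1, 11.6 and 8.13 with tau. Apart from Ch25h+/+ Tau- replicate 1, every Tau- library lay above every Tau+ library. Ndufb5 fell by 0.97 (SE 0.24, edgeR adjusted p = 0.0104), a call kept in all 16 fits without 1 library (adjusted p from 0.00637 to 0.0305), on 9.31 UMIs per library of which free RNA was estimated at 29.7%.

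Ndufb9, also of the complex I membrane arm, and Cox6c, a small complex IV subunit, fell in microglia by 0.71 (SE 0.21, edgeR adjusted p = 0.0305) and 0.67 (SE 0.21, adjusted p = 0.0458). Ndufb9 had 31.8, 45.5, 49.8 and 37.3 CPM in Ch25h+/+ Tau- and 24.2, 23.4, 19.2 and 27.6 in Ch25h+/+ Tau+, without overlap, and in the labelled Ch25h-/- libraries 21.6, 29.1, 49.6 and 50.5 without tau and 16.3, 21.2, 29.9 and 29.3 with tau, where the groups overlapped. Cox6c had 27.2, 53.1, 59.8 and 49.7 CPM in Ch25h+/+ Tau- and 33.7, 28.3, 24.7 and 33.6 in Ch25h+/+ Tau+, and 38.4, 49.1, 15.2 and 55.3 without tau and 21.3, 20.2, 28.2 and 34.2 with tau in the labelled Ch25h-/- libraries, overlapping in both backgrounds. The Ndufb9 call was lost in 8 of 16 fits without 1 library (adjusted p up to 0.0918): replicates 1 and 2 of both Tau+ groups, replicates 2 and 3 of the Ch25h+/+ and replicates 3 and 4 of the knockout-labelled Tau- group. The Cox6c call was lost in 12 of 16 (adjusted p up to 0.114) and kept only without replicate 1 of the Ch25h+/+ Tau- group or, among knockout-labelled libraries, without Tau- replicate 3 or Tau+ replicate 3 or 4. DESeq2 called neither gene (adjusted p of 0.0682 and 0.0914). Free RNA was estimated at 29.4% of the Ndufb9 and 43.1% of the Cox6c UMIs in microglia, and with it subtracted the log2 effects were -0.64 for Ndufb9 (edgeR adjusted p = 0.134) and -0.64 for Cox6c (adjusted p = 0.281).

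**Figure D5:**
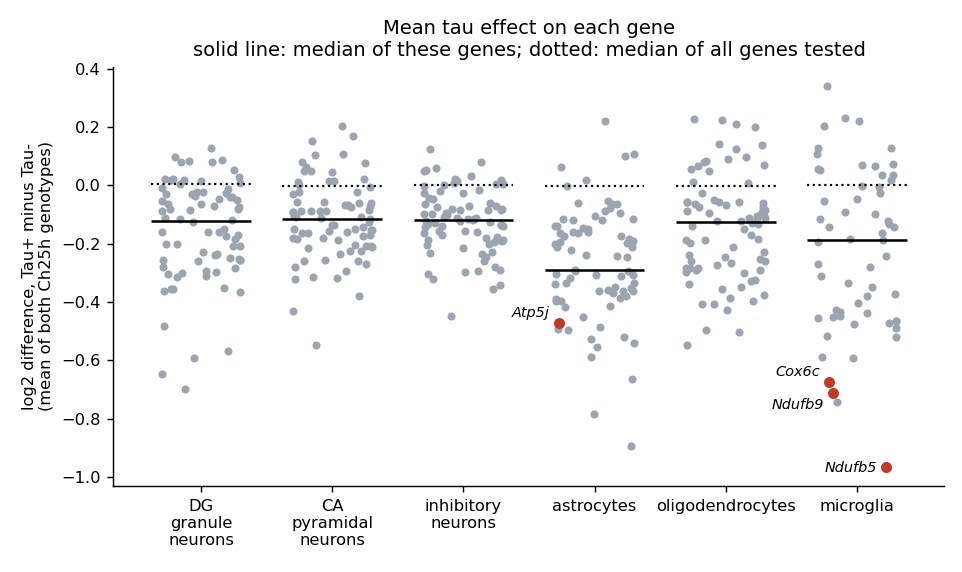
Mean tau effect of the genes tested (vertical axis, log2, Tau+ minus Tau-) in 6 classes, with solid lines at the median of these genes, dotted lines at the median of all genes and 4 called genes in red. The solid lines lie between -0.29 in astrocytes and -0.11 in CA neurons, below the dotted lines near 0.

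Most members lay below 0 in the mean tau effect in each of the 6 classes. The median log2 effect was -0.29 in astrocytes (74 of 79 members lower), -0.19 in microglia (44 of 59), -0.13 in oligodendrocytes (61 of 78), -0.12 in DG (63 of 78) and inhibitory neurons (67 of 79) and -0.11 in CA neurons (62 of 78), while the median of all genes lay within 0.01 of 0. At an unadjusted p under 0.05, 114 of 451 tests over the 6 classes were lower and 0 higher. These were 34 members in astrocytes, where 6.42% of all genes were lower at that level, 23 in DG neurons (4.93%), 17 in oligodendrocytes (5.15%), 16 in microglia (9.87%), 14 in CA neurons (5.48%) and 10 in inhibitory neurons (3.44%). Genes in 1 library rise and fall together, so these counts are a description and carry no test.

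Without any 1 library the medians ran from -0.31 to -0.21 in astrocytes, from -0.26 to -0.15 in microglia and from -0.17 to -0.09 in the other 4 classes. In 3 Tau- libraries, Ch25h+/+ Tau- replicate 3 and Ch25h-/- Tau- replicates 3 and 4, barcodes under 100 UMIs held over 100 member UMIs per 10000. Without these 3 libraries the medians were -0.14 in astrocytes, -0.12 in microglia, -0.04 in oligodendrocytes, -0.02 in DG, -0.03 in inhibitory and -0.01 in CA neurons, and 0 members were called with edgeR in astrocytes and microglia. These libraries were chosen after the data were seen, for high levels of the same genes outside nuclei, and all are Tau-, so the choice itself favours smaller tau effects and nothing is read from them. The log2 effects were then -0.88 for Ndufb5 (adjusted p = 0.0732), -0.64 for Cox6c (adjusted p = 0.0967) and -0.41 for Ndufb9 (adjusted p = 0.372) in microglia, and -0.30 for Atp5j in astrocytes (adjusted p = 0.417). Within replicates 1 and 2 alone the medians were -0.01 in DG, -0.02 in CA and -0.05 in inhibitory neurons, -0.06 in oligodendrocytes, -0.14 in microglia and -0.17 in astrocytes. Within replicates 3 and 4 alone they were -0.20, -0.17, -0.17, -0.27, -0.27 and -0.36 in the same order, further below 0 in each class, and the difference between these pairs of replicates was not tested. The 3 libraries named above are all replicates 3 or 4. With the expected free RNA subtracted the medians were -0.23 in astrocytes, -0.11 in microglia and -0.06 in oligodendrocytes. In DG, CA and inhibitory neurons they were -0.10, -0.10 and -0.11. In that edgeR fit Ndufb5 (adjusted p = 0.041) was the member called in microglia.

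In the main edgeR fit, which has no replicate term, the other contrasts called no member in any of the 6 classes. Some alternative edgeR fits called 1 or 2 members in astrocytes for the tau effects, as given in the last section. With the replicate term 7 of 79 members were called lower in astrocytes for the tau effect in Ch25h+/+, where 0.386% of all genes were lower, and 0 in the other classes and contrasts. For the tau effect in Ch25h+/+ alone the class medians ran from -0.34 to -0.13, with 93 tests lower and 2 higher of 451 at an unadjusted p under 0.05. Over the 6 classes 0.299% of all genes were called at the adjusted and 3.7% were lower at the unadjusted threshold, and DESeq2 called 2 members, both in astrocytes. For the tau effect in the labelled Ch25h-/- libraries they ran from -0.17 to -0.08, with 31 lower and 3 higher (background 0.201% called and 4.12% lower), and DESeq2 called 1 each in DG neurons, CA neurons and astrocytes. The difference between these tau effects had medians of 0.03 to 0.17 and 9 tests in each direction, where 0.0% of all genes were called and 2.22% were lower. Ch25h loss had medians of -0.15 to -0.06 without tau (27 lower, 2 higher), where 0.00379% of all genes were called and 1.9% were lower. With tau its medians were -0.06 to 0.05 (8 lower, 1 higher; background 0.00758% and 1.57%), and in the mean of both -0.10 to -0.04 (12 lower, 1 higher; background 0.0101% and 1.34%). DESeq2 called no member for any loss of Ch25h. The shares of all genes in this paragraph are those of edgeR. None is given for DESeq2, so its counts are not read as a result about the members. The tau and Ch25h contrasts share libraries.

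Among related gene lists, the mitochondrially encoded subunits lay below 0 in the mean tau effect for every gene tested in every class, with medians from -0.98 in DG neurons to -0.52 in microglia. Pooled over libraries, these subunits held 149 UMIs per 10000 in barcodes under 100 UMIs and 15.4 in all nuclei. Their values in nuclei are therefore not read as expression of the class. In DG neurons Ch25h+/+ Tau- replicate 3 held 45.9 mitochondrially encoded UMIs per 10000 and the other 3 libraries of its group 7.18 to 14.3. Without that library the medians were -0.55 in DG neurons, -0.57 in inhibitory neurons, -0.56 in oligodendrocytes, -0.49 in CA neurons, -0.41 in astrocytes and -0.39 in microglia, and 1 gene in DG neurons was not lower. Of 11 tested in microglia 5 fell (mt-Nd2, mt-Co2, mt-Atp6, mt-Nd4 and mt-Cytb, log2 -0.62 to -0.47) in edgeR's test, 3 without that library and 3 to 7 over the 16 fits without 1 library, and 0 were called in the other 5 classes (0 to 4 in astrocytes without 1 library), with 9 to 11 at an unadjusted p under 0.05. Assembly factors had medians between -0.04 and 0.02, with 1 gene called (Cox16, log2 -0.32 in microglia), and citric acid cycle enzymes medians between -0.10 and 0.05 with 0 called (0 to 3 per class at an unadjusted p under 0.05). Of the glycolysis enzymes, Aldoc fell in DG neurons (log2 -1.01, SE 0.17, edgeR adjusted p = 0.0262) and oligodendrocytes (-0.65), Ldhb fell in astrocytes (-0.31) and microglia (-0.53, adjusted p = 0.00416), and Hk2 rose in microglia (0.45). Of the regulators of mitochondrial gene expression, Esrrg rose in microglia (0.97, SE 0.28, adjusted p = 0.0264). No free RNA estimate is given for the genes of these lists, and its part in their tau effects was not tested.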

How the data were processed

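The authors deposited raw UMI count matrices of all barcodes, 1 per library, which the file headers say were made with Cell Ranger 4; the submitters' processing notes name Cell Ranger 3.1.0, Seurat and mm10. Counts are per gene and barcode and not normalized. Libraries held 51270831 to 84870650 UMIs in all, and nuclei were barcodes with at least 500 UMIs, 300 genes and at most 5% mitochondrial UMIs. Doublets were called with Scrublet (the top 0.8% per 1000 nuclei of a library) and nuclei were clustered with scanpy 1.11.5 (2990 variable genes, of which respiratory chain and mitochondrial genes were left out, 50 components, 20 neighbours, Leiden resolution 1). Of 56 clusters 27 stayed unnamed, since they were mostly doublets, were shallow, held fewer than 3 markers, or held as many or more markers of another class.

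UMIs were summed per library and class and tested with edgeR 4.0.16 (quasi-likelihood, TMM, filterByExpr, robust) in R 4.3.3, two-sided, with Benjamini-Hochberg adjustment over all genes of a contrast and a threshold of 0.05. DESeq2 1.42.0, other filters, scalings and nuclei, subtraction of expected free RNA and leaving out each library were alternatives. Replicate numbers follow accession order and tie no single library to one of another group. Since replicates 1 and 2 differed from 3 and 4 in free RNA per droplet in every group, a term for this split was an alternative. Expected free RNA of a gene is its share in barcodes under 100 UMIs times the library's background per droplet, and it assumes that each nucleus droplet holds that background. In simulated counts the test of the tau effect in Ch25h+/+ recovered 64.2% of genes changed 2-fold in CA neurons, 65.7% in astrocytes and 56.7% in microglia, and 41.8, 14.9 and 19.4% of those changed 1.5-fold. Only the Ch25h+/+ Tau+ group was changed, and each gene was drawn on its own. The simulation therefore does not give the recovery of the mean tau effect, nor that of genes that rise and fall together. The ± values are SDs over libraries. SEs come from the fits, whose dispersion holds the spread between libraries. The counting SD given for Atp5a1 covers counting error only.

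The members and lists were chosen with earlier results of these data known. Named are called members, the 5 highest and 5 lowest ratios outside nuclei, the 2 highest and 2 lowest per class with at least 10 UMIs per library, subunit isoforms and the genes next to the 200 UMI threshold; members named outside this rule are said to be chosen after their values were seen. Proteins were not used here, and the values of 1 called member are not reported here.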

Additional observations from a re-analysis of the deposited data

Results flagged for a closer look

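In CA pyramidal neurons 3 values stood far from the other 3 libraries of their group, out of 72 groups of 4 libraries tested by Dixon's gap ratio, which chance alone passes in about 1 of 20 groups. Atp5a1 (ATP synthase alpha) was lowest in Ch25h+/+ Tau+ replicate 3 at 37.4 CPM, where the others held 95.6 to 106. Atp5a1 was also lowest in the library labelled Ch25h-/- Tau- replicate 4 at 28.8 CPM, where the others held 84.2 to 91.7. Uqcrfs1 (the Rieske protein of complex III) was highest in the library labelled Ch25h-/- Tau- replicate 3 at 10.7 CPM, where the others held 5.41 to 6.23.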

How the results depend on the processing

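No paired analysis was possible because the labels give no replicate numbers, and those used here follow accession order. The split of replicates 1 and 2 against 3 and 4 was fitted as a term in its place. Of the 42 genotype counts of called members 40 were 0, and 1022 of their 1040 refits gave 0 again. The 2 counts above 0 stayed within 1.5 times in 21 of 52 refits, and the 14 counts between classes and against free RNA in 53 of 60. In the mean tau effect, astrocytes (2 members) gave 1 with RLE scaling, 5 with no low-count filter, 1 with free RNA subtracted, 12 with a term for replicates 1 and 2 against 3 and 4, 0 to 6 without 1 library, 0 without the 3 Tau- libraries rich in free respiratory RNA (a choice that itself favours smaller tau effects), 1 in replicates 1 and 2 alone and 0 in replicates 3 and 4 alone. Microglia (3 members) gave 1 with DESeq2, 1 with nuclei of at least 1000 UMIs, 1 with free RNA subtracted, 5 with the replicate term, 1 to 4 without 1 library, 0 without those 3 libraries, and 1 in replicates 1 and 2 alone and 0 in replicates 3 and 4 alone. Where 0 were called, DESeq2 gave 1 in DG neurons and oligodendrocytes, the replicate term 1 in DG neurons, 1 in CA neurons and 3 in oligodendrocytes, and no low-count filter 1 in oligodendrocytes. For the tau effect in Ch25h+/+ astrocytes gave 2 with DESeq2, 2 with no low-count filter, 1 with free RNA subtracted, 7 with the replicate term, 0 to 2 without 1 library and 1 in replicates 1 and 2 alone. For the tau effect in the libraries labelled Ch25h-/- DESeq2 gave 1 in DG neurons, 1 in CA neurons and 1 in astrocytes, and replicates 1 and 2 alone gave 1 in astrocytes. Apart from the replicate term, no share of all genes called is given for these refits. Their counts therefore show how the calls moved and are not read as a result about the members.

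Among classes, library totals in place of TMM moved members called higher to 4 in DG neurons, 2 in CA neurons and 43 in microglia, and called lower in microglia to 5. With no low-count filter CA neurons had 15 called higher, and with free RNA subtracted inhibitory neurons had 6 called lower and microglia 3 called higher. For these settings no share of all genes called is given, so the counts are not read as a result about the members. Against barcodes under 50 UMIs in place of 100, Ndufa10 turned to -0.0729 and Sdha to -0.13. The counts against free RNA were 76 to 79 higher and 2 to 4 lower over all settings, and the cause of the moves was not tested beyond this. The replicate subsets, the omission of those 3 libraries and the barcodes of middle rank were alternatives added after the data were seen.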
